A study of Mus musculus with 30 samples.

Results

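The genes described here are 8 genes of sterol synthesis: Hmgcs1, Idi1, Fdft1, Sqle, Cyp51, Msmo1, Dhcr7 and Insig1. They were taken by symbol from a table of 35727 genes, of which 16958 passed a filter on low values, and all 8 passed that filter. They were chosen with results of these libraries in view, and which values were used is not stated. The differences between germ-free and wild-type mice at the shared ages were assumed to be those values, and are given as a description without a test, as are comparisons that share libraries with them. In every library each of the 8 genes read at least 439 normalized counts. All 8 are protein coding.

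Cells build cholesterol from acetyl-CoA, first along the mevalonate pathway to isoprenoid units, then through squalene to lanosterol, and last by reshaping lanosterol into cholesterol. The genes of this route are under shared control of the transcription factor SREBP2, which is held in the endoplasmic reticulum by INSIG and SCAP proteins while sterols are plentiful and moves to the nucleus when they run low. In blood-forming cells, as elsewhere, the route supplies membranes and prenyl groups, and cholesterol can be taken up from lipoproteins instead of being made.

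Haematopoietic stem cells (HSCs), the cells that renew blood, were sorted in lots of 4000 to 5000 and sequenced in 30 libraries. Wild-type mice (WT) gave 4 libraries at 2 months, 5 at 1 year and 4 at 2 years of age. Libraries labelled IL1R1 KO, for mice without the type 1 interleukin-1 receptor, numbered 3, 4 and 5 at the same ages. Mice with a germ-free bowel (GF) gave 3 libraries at 2 months and 2 at 1 year, and none of 2 years. All are mice, and their strain and sex, and which part of Il1r1 is deleted, are not given in these sources. The labels do not tell whether replicates came from separate mice, and p-values here rest on library-to-library spread alone. By its title the series is about interleukin-1 and the microbiome in HSC ageing.

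Il1r1, the gene named in the knockout label, read 137 to 256 normalized counts in WT and 186 to 262 in libraries labelled IL1R1 KO at 2 months. It read 193 to 383 and 246 to 409 in the same groups at 2 years, so its gene total was not lower under the knockout label and does not check it. A gene total includes any transcript that the deleted allele still makes. For 1 library labelled IL1R1 KO (1 year, replicate 1) the title gives 1 year and the age label 2 months. It was kept at 1 year. Estimated depth was 15.6 to 56.3 M reads per library, where M stands for mega. The GF libraries of 1 year had 15.6 and 23.9 M, and WT of 1 year 32.6 to 56.3 M, without overlap. The part of depth in differences between these groups was not tested. All 13 genes of the HSC marker list, among them Hlf, Procr and Mecom but also Cd34 and Flt3, were above 0 in every library. Transcripts of other cells were also present. The summed level of 6 markers of myeloid progenitors ran from 12025 to 127981 normalized counts over the 30 libraries. In bulk RNA, fewer cells of a type and less RNA per cell cannot be told apart.

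Because the 8 genes share a regulator, bases just before RefSeq transcription starts are shown first. Matches to sterol elements and to CCAAT boxes are marked, and those to GC boxes are not. RefSeq promoter entries (GRCm38.p6) were matched for 6 of the 8 genes, Hmgcs1, Idi1, Cyp51, Msmo1, Dhcr7 and Insig1, and not for Fdft1 and Sqle. The 250 bases before each start were searched on both strands for TCACNCCAC, a sterol regulatory element, its shorter core TCACNCCA (contained in the former), CCAAT, the box bound by NF-Y, and GGGCGG, the GC box bound by Sp1. The full element lay in 1 of the 6 promoters, that of Hmgcs1, and in at least 1 promoter of 1.22% of the 27025 genes of the table. The core lay in 2 of the 6, Hmgcs1 and Msmo1, and in 4.2% of all genes. CCAAT and the GC box were each present for 6 of 6 genes, against 37.5% and 35.4% of all genes, counting any RefSeq start of a gene (33.8% and 32.7% of the 32851 promoters). Promoters of 1 chromosome, which holds none of the 8 genes, were left out of these shares and of the counts of genes and promoters. The shares were not limited to coding or expressed genes, so nothing is read from the gap to the 6 genes. Hmgcs1 is shown over the whole 250 bases (chr13:119690101-119690350, plus strand, GRCm38.p6), since it alone holds the full element. Capitals mark the element TCACCCCAC and 3 CCAAT boxes, read here as ATTGG because they lie on the other strand.
Hmgcs1: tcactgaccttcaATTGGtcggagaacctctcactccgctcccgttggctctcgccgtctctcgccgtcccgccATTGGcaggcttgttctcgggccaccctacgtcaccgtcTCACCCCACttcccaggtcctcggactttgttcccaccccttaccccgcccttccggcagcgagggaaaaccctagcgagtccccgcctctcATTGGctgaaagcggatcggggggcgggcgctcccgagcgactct
The other 5 are shown as 30 bases around 1 CCAAT box, each written on the strand of its gene: Idi1 at chr13:8885557-8885586 (plus strand), Cyp51 at chr5:4104701-4104730 (minus), Msmo1 at chr8:64733730-64733759 (minus), Dhcr7 at chr7:143830125-143830154 (plus) and Insig1 at chr5:28071192-28071221 (plus). Capitals mark CCAAT or ATTGG, and in Msmo1 also the core element TCACTCCA. The windows of Idi1, Cyp51, Msmo1 and Dhcr7 lie inside the gene spans given below, so their RefSeq starts differ from the outer starts of those spans. For Dhcr7 the span begins well before the window, at 143823145.
Idi1: gctgATTGGcgagcccgggcatggtccaag
Cyp51: gccaCCAATctggtcctgagatccctccgc
Msmo1: attcTCACTCCAtccgcgcagCCAATgact
Dhcr7: ttcaCCAATcacaggacgcagctcgcgaaa
Insig1: tcccATTGGctccggcggcctcaccagacc
These are matches of letters only, and binding was not measured.

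GF and WT libraries were compared first, at 2 months and at 1 year. All 8 genes had lower means in GF than in WT HSCs at both ages, by a median log2 difference of -0.61 at 2 months and -0.67 at 1 year, while the median over all genes tested was 0.00 at both. Dhcr7 stood lowest by far, at about 3-fold below WT at both ages, and Fdft1, Cyp51 and Insig1 differed least at one age or the other. Log2 differences are on the scale log2(normalized count + 1) and carry the standard error (SE) of the limma fit to all 30 libraries. Values of single libraries follow in replicate order.

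**Figure D1:**
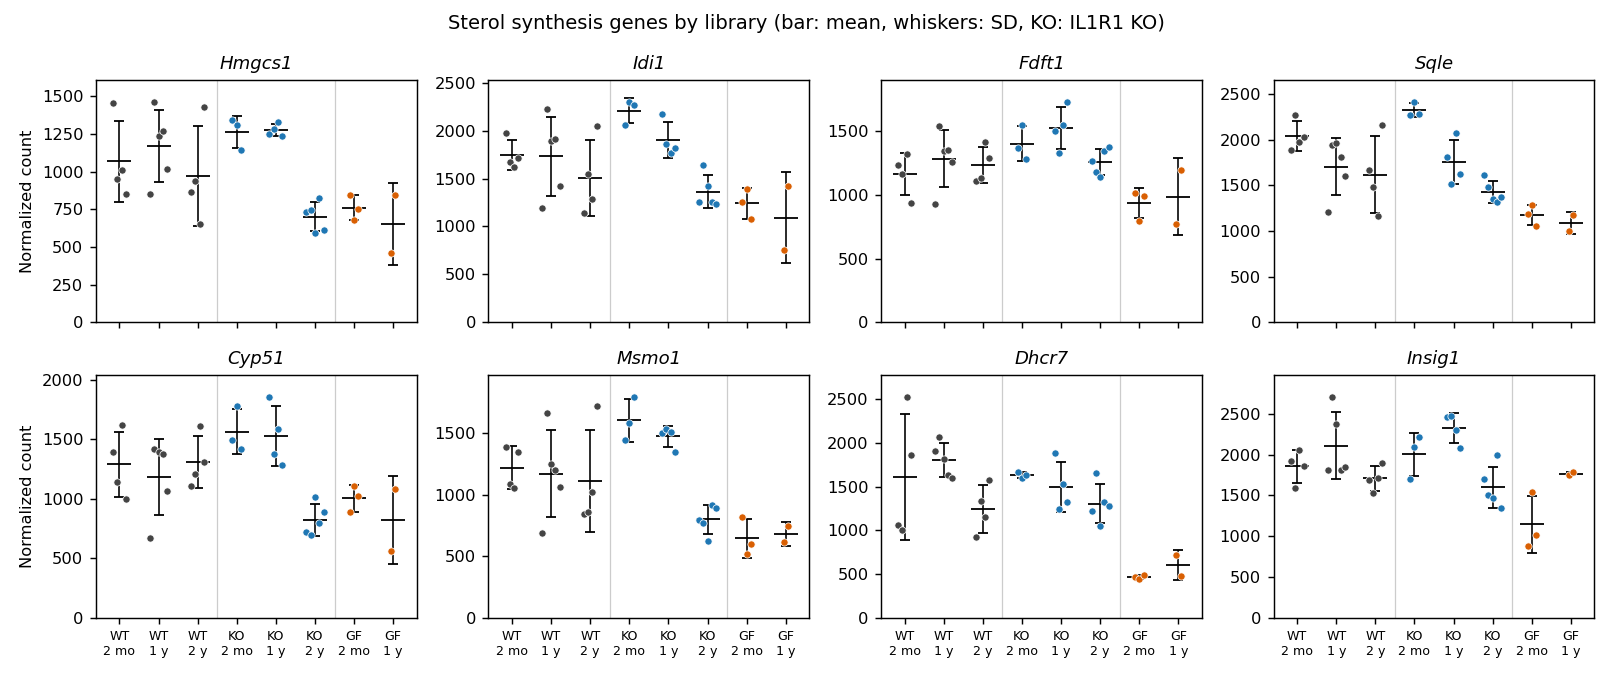
Normalized counts of the 8 sterol synthesis genes (y axis, from 0, own scale in each panel) in the 8 groups (x axis). Points are libraries, horizontal bars group means and whiskers SD. The 5 GF points of Dhcr7, from 439 to 720, lie below all 25 others, and the points labelled IL1R1 KO of 2 years lie below those of 2 months for 5 genes.

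Hmgcs1 (ENSMUSG00000093930, chromosome 13, 119690379 to 119708260, plus strand, GRCm38) makes the HMG-CoA on which the mevalonate pathway starts. It read 848, 682 and 752 normalized counts in the GF libraries of 2 months and 1456, 951, 1012 and 854 in WT. At 1 year the GF libraries held 458 and 847, and WT 849, 1465, 1239.8, 1273 and 1018. GF and WT did not overlap at either age, although at both only a few counts separated the highest GF from the lowest WT library. The log2 difference was -0.46 ± 0.22 at 2 months (1.38-fold lower) and -0.88 ± 0.24 at 1 year (1.84-fold lower). Among libraries labelled IL1R1 KO, Hmgcs1 read 1346, 1309 and 1145 at 2 months, 1251, 1286, 1329 and 1239.7 at 1 year and 729.9, 744, 596, 823 and 613 at 2 years, so the oldest libraries lay wholly below the younger ones. WT of 2 years spread from 650.1 to 1431, over nearly the whole range of the other groups.

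Idi1 (ENSMUSG00000058258, chromosome 13, 8885501 to 8892451, plus strand) interconverts the isopentenyl and dimethylallyl diphosphates from which all isoprenoids are joined. Its counts were 1257, 1394 and 1075 in GF and 1972, 1676, 1617 and 1720.2 in WT at 2 months, without overlap, for a log2 difference of -0.50 ± 0.20. At 1 year the values were 754 and 1427 in GF and 1197, 2232, 1891, 1915 and 1427 in WT, a log2 difference of -0.70 ± 0.22. The second GF library of 1 year lay within the WT range, level with WT replicate 5. With the IL1R1 KO label they were 2058, 2303 and 2271 at 2 months, 2174, 1866, 1763 and 1815 at 1 year and 1259, 1639, 1421, 1252 and 1233 at 2 years, and the 2-year libraries lay below both younger groups. An antisense gene model overlaps an exon of Idi1, and these libraries do not mark strand, so reads of the 2 cannot be told apart.

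Fdft1 (ENSMUSG00000021273, chromosome 14, 63145150 to 63179578, minus strand) joins 2 farnesyl groups into squalene, the first step committed to sterols. Of the 8 genes it differed least between GF and WT at 2 months, with 1017, 797 and 990.5 in GF and 1231, 1164, 1323 and 939 in WT, which overlapped. GF libraries of 1 year read 774 and 1199 and WT 929 to 1543, again with overlap. The log2 differences were -0.31 ± 0.16 and -0.39 ± 0.18. Across the other groups Fdft1 had means from 1236 ± 143 (SD, n = 4) in WT of 2 years to 1527 ± 164 (SD, n = 4) in libraries labelled IL1R1 KO of 1 year.

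Sqle (ENSMUSG00000022351, chromosome 15, 59315077 to 59331192, plus strand) adds oxygen to squalene and is a rate-limiting step of the later pathway. It read 1188, 1281 and 1057 in GF and 1886, 2269, 1979 and 2029 in WT at 2 months. GF of 1 year gave 999.9 and 1174, and WT 1210.1, 1944, 1961, 1809.6 and 1604. Neither age showed overlap, and at 1 year the lowest WT library, replicate 1, lay just above the higher GF library. Sqle was 1.74-fold lower in GF at 2 months (log2 difference -0.80 ± 0.16) and 1.55-fold lower at 1 year (-0.63 ± 0.18). Libraries labelled IL1R1 KO read 2273, 2415 and 2286 at 2 months, 1813, 1516, 2074 and 1619 at 1 year and 1610.1, 1486, 1348, 1315 and 1368 at 2 years. The 2-month libraries lay above all of the later ones.

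Cyp51 (ENSMUSG00000001467, chromosome 5, 4081145 to 4104746, minus strand) removes the 14-alpha methyl group of lanosterol. GF libraries read 885, 1108 and 1024 and WT 1392, 1142, 1619.7 and 1002 at 2 months, which overlapped (log2 difference -0.34 ± 0.23). At 1 year GF gave 558 and 1082 and WT 673, 1417, 1393, 1379 and 1067, a log2 difference of -0.56 ± 0.25 with overlap. Here the spread within groups was wide, and both the GF and the WT group of 1 year had a replicate 1 far below the others. Under the IL1R1 KO label the values were 1492, 1777 and 1422 at 2 months, 1853, 1379.7, 1584 and 1282 at 1 year and 718, 696, 1016, 794 and 888 at 2 years. The group of 2 years labelled IL1R1 KO had the lowest median of all 8 groups and did not overlap WT of 2 years, which read 1110.0, 1208, 1611 and 1310.2.

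Msmo1 (ENSMUSG00000031604, chromosome 8, 64718139 to 64733792, minus strand) oxidizes the methyl groups at carbon 4 of the sterol ring. In GF libraries of 2 months it read 821, 516 and 597, and in WT 1390.5, 1085, 1056 and 1346. The groups did not overlap, and Msmo1 was 1.91-fold lower in GF (log2 difference -0.93 ± 0.23). At 1 year it read 614 and 747 in GF and 684, 1660.0, 1250.1, 1199.8 and 1064 in WT, a log2 difference of -0.73 ± 0.25. WT replicate 1 lay between the GF libraries there, and the other 4 WT libraries were all above them. Those labelled IL1R1 KO held 1442, 1579 and 1791 at 2 months, 1503, 1532, 1512 and 1348 at 1 year and 792, 773, 621, 915 and 889.8 at 2 years, again with the oldest wholly below the younger groups.

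Dhcr7 (ENSMUSG00000058454, chromosome 7, 143823145 to 143848410, plus strand) reduces 7-dehydrocholesterol to cholesterol in the last step of one branch of the route. It read 471, 439 and 487 in GF and 1064, 999, 2522 and 1859 in WT at 2 months. GF libraries of 1 year gave 720.1 and 481, and WT 1911, 2072, 1818, 1635 and 1604. The 5 GF libraries, from 439 to 720, lay below all 25 other libraries, which ran from 928 to 2522. For each of the other 7 genes at least 2 non-GF libraries lay at or below the highest GF library. Dhcr7 was 3.21-fold lower in GF at 2 months (log2 difference -1.68 ± 0.23) and 3.05-fold lower at 1 year (-1.61 ± 0.25). These were the 356th and 533rd lowest log2 differences of the 16958 genes tested. As the gene is taken to have been chosen on this contrast, nothing is read from these ranks. WT of 2 months spread widely, with replicates 1 and 2 close to the lowest of all non-GF libraries and replicate 3 the highest of all. Under the IL1R1 KO label Dhcr7 read 1671, 1600.3 and 1637 at 2 months, 1885, 1244, 1530.1 and 1322 at 1 year and 1218, 1654, 1047, 1322 and 1279 at 2 years, with overlap.

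Insig1 (ENSMUSG00000045294, chromosome 5, 28071363 to 28078662, plus strand) encodes the endoplasmic reticulum protein that retains SCAP with SREBP2 and is itself an SREBP2 target. GF libraries of 2 months read 876, 1541 and 1017 and WT 1921, 1586, 2061 and 1856, without overlap, for a log2 difference of -0.73 ± 0.16. At 1 year GF read 1752 and 1784 and WT 1812, 2702, 2379, 1810.2 and 1847. The groups there did not overlap by a margin of under 30 counts, and the log2 difference was -0.23 ± 0.18. Insig1 was the 1 gene of the 8 whose GF libraries did not overlap between the ages, with a log2 difference of 0.67 ± 0.20 from 2 months to 1 year. In that comparison 13.9% of all genes tested were higher at 1 year without overlap. Under the IL1R1 KO label Insig1 read 1706, 2091 and 2211 at 2 months, 2460.4, 2468, 2304 and 2079 at 1 year and 1695, 1502, 1465, 1989.9 and 1351 at 2 years, and its 1-year libraries lay above those of 2 years.

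The GF groups lay below WT without overlap for 6 of the 8 genes at 2 months, all but Fdft1 and Cyp51, and for 4 at 1 year: Hmgcs1, Sqle, Dhcr7 and Insig1. Over all genes tested, 3.74% were lower in GF without overlap at 2 months and 13.1% at 1 year, with 2 GF libraries. As the genes are taken to have been chosen on this contrast, nothing is read from these counts. The GF libraries of 1 year differed from each other: replicate 1 was the lower for 7 of the 8 genes, all but Dhcr7. Without it the median log2 difference at 1 year was -0.34, with Fdft1 and Cyp51 both at -0.08, and without replicate 2 it was -0.95. Dhcr7 was at -1.90 without replicate 1 and at -1.32 without replicate 2.

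Other transcripts that differed between these groups are given beside that. At 2 months the Mpo-rich libraries, over 10000 normalized counts of Mpo (a primary granule gene of myeloid progenitors), were GF replicates 1 and 3 and WT replicates 2 and 4. Without these, 1 GF and 2 WT libraries remained, and the median log2 difference of the 8 genes was -0.64. At 1 year the summed level of 11 neutrophil markers was 2824 to 4239 normalized counts in GF and 43.0 to 1834 in WT, with at most 1 and 4 markers at 0. Of 11 erythroid markers 5 were called higher in GF at 1 year (1.83% of all genes). The mean log2 level of the 11 was 9.63 to 10.73 in GF and 7.23 to 8.88 in WT. The mean log2 level of 26 cell cycle genes at 2 months was 11.30 ± 0.11 for the 3 GF and 11.36 ± 0.15 for the 4 WT libraries (mean ± SD). At 1 year it was 10.89 ± 0.30 for 2 GF libraries and 10.72 ± 0.03 for 5 of WT. With that level as a covariate the medians of the 8 genes were -0.61 and -0.73. The part of neutrophil and erythroid transcripts in the differences was not tested.

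GF libraries also lay below libraries labelled IL1R1 KO at the shared ages. The median log2 difference of GF from IL1R1 KO was -0.84 at 2 months and -0.91 at 1 year, and all 8 genes were lower without overlap at both ages (background 8.19% and 10.4%). Dhcr7 had the largest difference of the 8 at both ages, -1.81 ± 0.25 and -1.32 ± 0.26, followed by Msmo1 at -1.33 ± 0.25 and -1.12 ± 0.26. This comparison shares the GF libraries with the one above, on which the genes are taken to have been chosen. Nothing is therefore read from its counts. Set against WT, libraries labelled IL1R1 KO were higher for 8 of 8 genes at 2 months (median log2 difference 0.27) and for 7 of 8 at 1 year (0.16), all but Dhcr7. Of these, Idi1, Sqle and Msmo1 did not overlap at 2 months (background 3.81%), and no gene of the 8 did so at 1 year (background 2.91%). The WT libraries are shared in the same way, so nothing is read from these counts either.

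**Figure D2:**
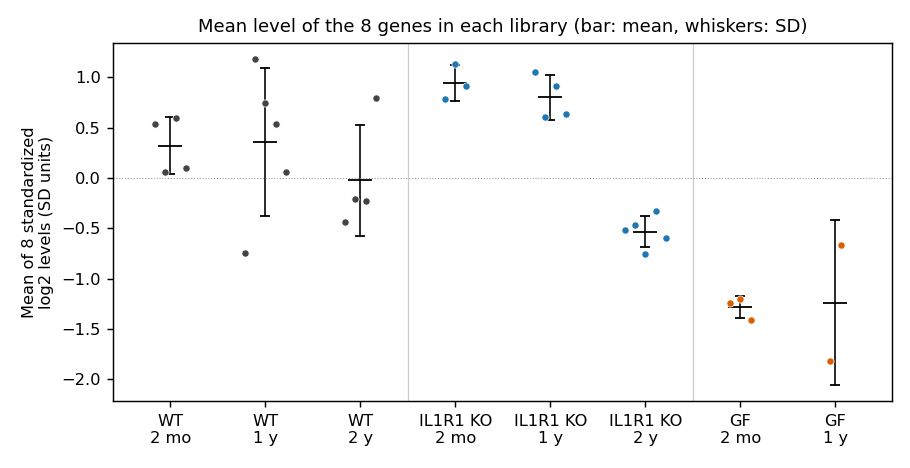
Mean of the 8 standardized log2 levels in each library (y axis, in SD units over the 30 libraries) by group (x axis). Points are libraries, horizontal bars group means and whiskers SD. The 5 GF libraries lie between -1.82 and -0.66, and libraries labelled IL1R1 KO lie above 0.60 at 2 months and 1 year and at or below -0.33 at 2 years.

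The 8 levels can be followed together by standardizing each over the 30 libraries and taking their mean, in SD units. This mean was -1.25, -1.20 and -1.41 in GF of 2 months and -1.82 and -0.66 in GF of 1 year. WT libraries read 0.53, 0.06, 0.60 and 0.10 at 2 months, -0.74, 1.18, 0.74, 0.53 and 0.06 at 1 year and -0.44, -0.21, -0.23 and 0.79 at 2 years. WT of 1 year thus held both the highest library of all 30 (replicate 2) and 1 (replicate 1) at the level of the GF libraries, and replicate 1 was the lowest of its group for 6 of the 8 genes. In those labelled IL1R1 KO it was 0.78, 1.14 and 0.91 at 2 months, 1.06, 0.60, 0.91 and 0.63 at 1 year and -0.51, -0.47, -0.75, -0.33 and -0.60 at 2 years.

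The ages of libraries labelled IL1R1 KO, and the comparison with WT at 2 years, share no library with the contrast of GF and WT assumed to have been used for the choice, and were tested on that assumption. The estimate of spread in the fit comes from all 30 libraries. From 2 months to 2 years 5 of the 8 genes fell: Hmgcs1, Idi1, Sqle, Cyp51 and Msmo1 (limma, Benjamini-Hochberg adjusted p below 0.05 over all 16958 genes). Lower calls made up 2.9% of all genes in this comparison, and calls in either direction 8.02%. The median log2 difference of the 8 genes was -0.71, against 0.00 over all genes. The 5 genes also did not overlap between the ages, which held for 7.44% of all genes in the lower direction.

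Msmo1 had the largest change, and fell 2.02-fold (log2 difference -1.01 ± 0.22, limma adjusted p = 0.00349). Cyp51 differed by -0.93 ± 0.22 (limma adjusted p = 0.00663) and Hmgcs1 by -0.86 ± 0.21 (limma adjusted p = 0.00971). For Sqle the difference was -0.71 ± 0.16 (limma adjusted p = 0.00396), and for Idi1 -0.71 ± 0.19 (limma adjusted p = 0.0184). Both early enzymes and the middle of the lanosterol branch were thus among the called genes. Insig1 (-0.33 ± 0.16, limma adjusted p = 0.229), Dhcr7 (-0.34 ± 0.22, limma adjusted p = 0.411) and Fdft1 (-0.15 ± 0.15, limma adjusted p = 0.649) were not called. Dhcr7, the gene with the largest GF difference, was therefore among the 3 without a call here.

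Cell cycle genes moved in the same comparison. Of 26, 12 were called lower at 2 years (2.9% of all genes) and all 26 had negative differences, with a median of -0.72. The mean log2 level of the list was 11.42 to 11.91 at 2 months and 10.64 to 11.14 at 2 years. With it as a covariate only Msmo1 of the 8 genes was called (log2 difference -0.97, limma adjusted p = 0.0496), and the median was -0.45. Cyp51 was then at -0.76 (limma adjusted p = 0.125) and Hmgcs1 at -0.60 (limma adjusted p = 0.212). Without the Mpo-rich libraries a single library labelled IL1R1 KO of 2 months remained, replicate 2, assumed to vary like the other groups. No gene of the 8 was then called, while their median log2 difference was -0.77. Hmgcs1 lost its call without 2-month replicate 1 (limma adjusted p = 0.0558), and Idi1 without replicate 2 (0.0655) or replicate 3 (0.0597). Summed mast cell and basophil markers ran from 124 to 12931 normalized counts at 2 months and up to 262 at 2 years, with 2 to 3 and 2 to 4 of 7 at 0, and their part was not tested.

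Between 1 year and 2 years, under the same label, the direction of the 8 genes was the same. All 8 genes had negative differences, with a median of -0.52, and none was called by limma. An unadjusted limma p below 0.05 was found for 6, and the share of all genes at that level is not given. Only 0.177% of all genes were called in this comparison, 0.059% as lower. Hmgcs1 was at -0.87 ± 0.19 (limma adjusted p = 0.0558), Msmo1 at -0.90 ± 0.20 (0.0640) and Cyp51 at -0.89 ± 0.20 (0.0640). Insig1 was at -0.55 ± 0.14 (limma adjusted p = 0.134) and Idi1 at -0.49 ± 0.17 (0.434). These 5 genes did not overlap between the ages, against 1.71% of all genes in that direction. Of 26 cell cycle genes 0 were called and 0 had an unadjusted p below 0.05, with a median of 0.05. Hmgcs1, Cyp51 and Msmo1 were called when only the groups compared entered the fit (limma adjusted p = 0.00896, 0.0205 and 0.00896) or when genes needed a value of 50 (0.0431, 0.0453 and 0.0453). Of 11 neutrophil markers 11 had positive differences and 0 were called (5 with an unadjusted p below 0.05). Their sum was 346 to 6938 normalized counts at 1 year and 3557 to 10822 at 2 years. The mean log2 level of 11 erythroid markers averaged 9.55 ± 0.42 in the 4 younger libraries and 10.29 ± 0.16 in the 5 older ones (mean ± SD), with no overlap, while their sums overlapped. That of the 13 genes of the HSC list, with Cd34 and Flt3, was 12.17 to 12.18 at 1 year and lower, 12.04 to 12.13, at 2 years. The sum of 8 T and NK cell markers was 1106 to 1590 and 1608 to 2556 normalized counts at these ages. No erythroid or HSC marker was called by limma (4 of each list with an unadjusted p below 0.05), 1 T and NK marker was called higher, and the part of these transcripts was not tested.

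From 2 months to 1 year, under the same label, 0 of the 8 genes were called by limma (2% of all genes), 1 had an unadjusted p below 0.05, and the median log2 difference was -0.08. That 1 gene was Sqle, at -0.41 ± 0.16 (limma adjusted p = 0.213), which did not overlap between the ages, as did 5.34% of all genes in the lower direction. The 3 genes with the lowest log2 differences at 2 years stood close to 0 at 1 year: Msmo1 at -0.12 ± 0.23, Cyp51 at -0.04 ± 0.23 and Hmgcs1 at 0.01 ± 0.22. Of 26 cell cycle genes 7 were called lower by 1 year (0.613% of all genes), and all 26 had negative differences. Whether changes of cell cycle genes and of the 8 genes are linked was not tested.

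**Figure D3:**
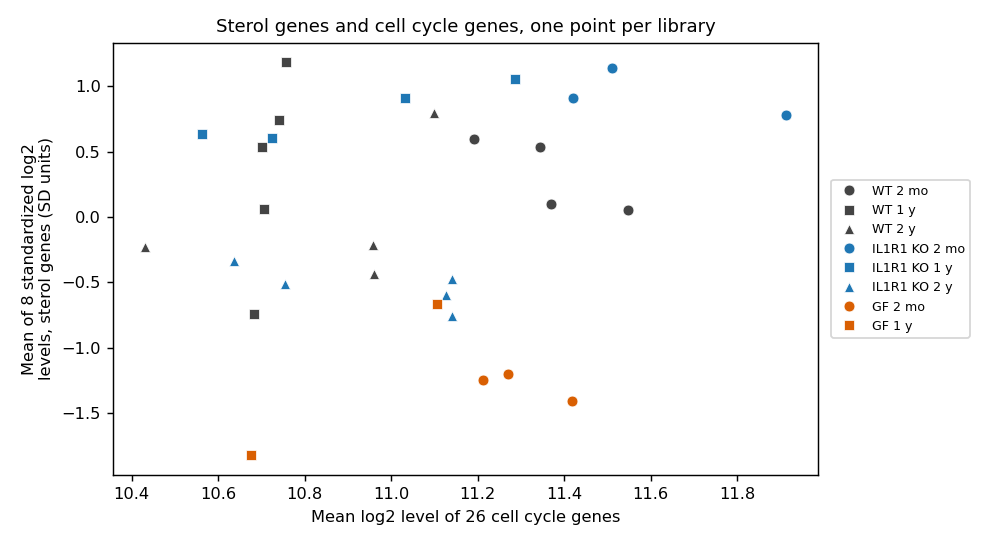
Each point is 1 library: the mean log2 level of 26 cell cycle genes (x axis) against the mean of the 8 standardized log2 levels of the sterol genes (y axis, SD units). Marker shape gives age and colour the group. Libraries labelled IL1R1 KO of 1 year and of 2 years overlap on the x axis, where they run from 10.56 to 11.29, and lie above 0.60 and at or below -0.33 on the y axis.

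Against WT of the same age, libraries labelled IL1R1 KO of 2 years had 0 of the 8 genes called by limma (1.42% of all genes), with 3 at an unadjusted p below 0.05 and a median log2 difference of -0.14. Cyp51 differed most, at -0.67 ± 0.20 (limma adjusted p = 0.103), and was the 1 gene of the 8 that did not overlap, against 2.12% of all genes in that direction. It was called when only these groups entered the fit (limma adjusted p = 0.0458). Hmgcs1 was at -0.42 ± 0.19 (limma adjusted p = 0.391) and Msmo1 at -0.43 ± 0.20 (0.408). WT replicate 4 of 2 years was the highest of its group for 6 of the 8 genes, and without it Hmgcs1 was at -0.21 and Msmo1 at -0.20.

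In WT, ages were described without a test. The median log2 difference was 0.05 from 2 months to 1 year, -0.18 from 2 months to 2 years and -0.15 from 1 year to 2 years. From 2 months to 2 years Msmo1 was at -0.19 ± 0.21, Hmgcs1 at -0.17 ± 0.20 and Cyp51 at 0.03 ± 0.21. Sqle had the lowest difference there, -0.37 ± 0.15, with 1664, 1487, 1159 and 2159 normalized counts at 2 years overlapping the 1886 to 2269 of 2 months. Dhcr7 was the 1 gene of the 8 without overlap between 1 year and 2 years (-0.56 ± 0.20; background 0.814%). Whether the age differences under the IL1R1 KO label exceed those of WT was not tested, since WT libraries of 2 months are taken to have entered the choice of the genes.

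The remaining 15 genes of the sterol pathway list had smaller median differences between GF and WT than the 8. As the 8 are taken to have been chosen on this contrast, nothing is read from that gap. At 2 months 0 of 15 were called by limma (0.301% of all genes were called lower), 2 had an unadjusted p below 0.05, 12 were negative, and their median log2 difference was -0.18. At 1 year 1 of 15 was called lower (3.13% of all genes), all 15 were negative, and the median was -0.25. That gene was Acat2, which joins acetyl-CoA units at the head of the route (-0.67 ± 0.16, limma adjusted p = 0.0140). It read 1402 and 1463 in GF and 1877, 2376, 2567, 2389 and 2219 in WT, and reads of near-identical Acat3 could be counted with it. Its call was lost without either GF library (limma adjusted p = 0.145 and 0.0514). In libraries labelled IL1R1 KO from 2 months to 2 years, 1 of the 15 was called lower (2.9% of all genes) and 14 were negative. This was Fdps, which makes farnesyl diphosphate (-0.88 ± 0.22, limma adjusted p = 0.0124). Its call was lost with the cell cycle covariate (limma adjusted p = 0.205) and without 2-month replicate 1 (0.0639) or 3 (0.0505). In the other 3 comparisons tested 0 of the 15 were called by limma, with 3 at an unadjusted p below 0.05 against WT of 2 years, 3 from 2 months to 1 year and 2 from 1 year to 2 years.

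**Figure D4:**
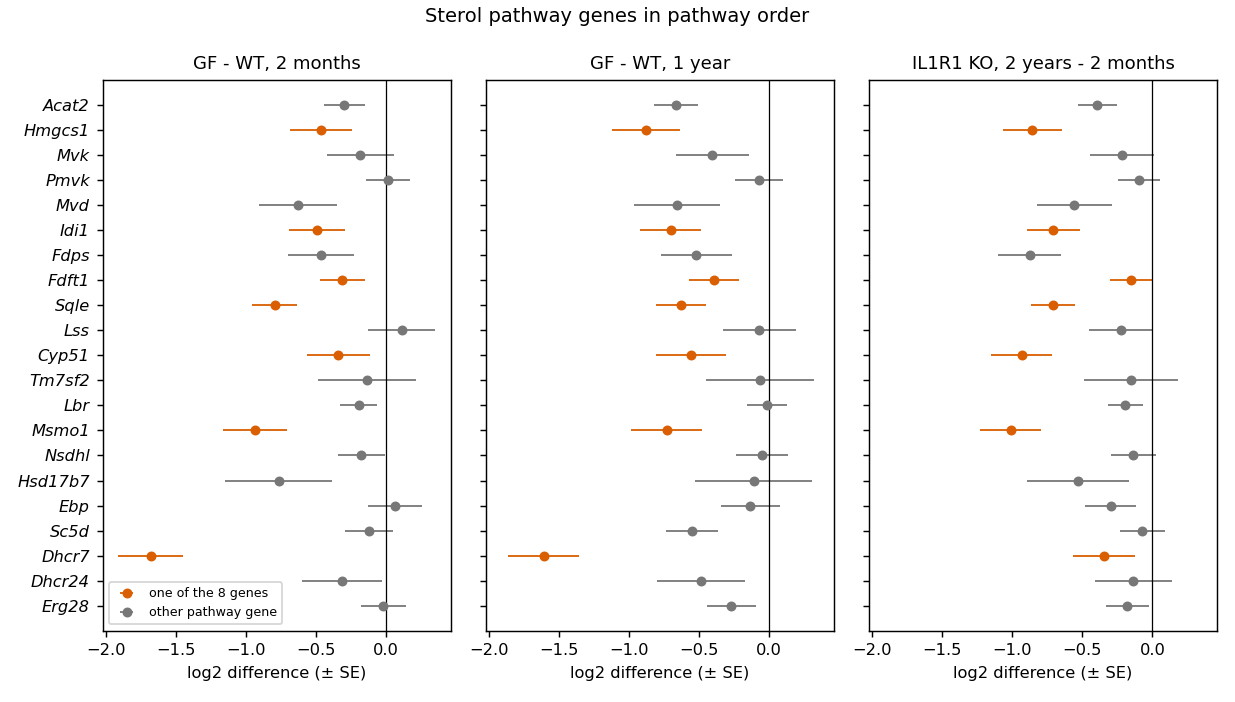
Log2 differences ± SE (x axis) of 21 sterol pathway genes in pathway order (y axis) for GF minus WT at 2 months and at 1 year and for IL1R1 KO of 2 years minus 2 months. Orange marks 7 of the 8 genes described (Insig1 is a regulator, not an enzyme) and grey 14 others. Dhcr7 lies farthest left in the GF panels, at -1.68 and -1.61, and is at -0.34 in the other.

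Of the other 11 regulators of SREBP2 listed, 0 were called in GF at 2 months (2 with an unadjusted p below 0.05) and 2 were called lower at 1 year (3.13% of all genes). Those were Srebf2, the gene of SREBP2 (-0.42 ± 0.12, limma adjusted p = 0.0454), and Rnf145, a ubiquitin ligase of the endoplasmic reticulum (-0.79 ± 0.22, 0.0377). Neither call held without GF replicate 1 (limma adjusted p = 0.546 and 0.440). Leaving out WT replicate 1, 2, 3 or 5 also ended that of Srebf2, and WT replicate 2, 3, 4 or 5 that of Rnf145. Srebf2 was at -0.11 ± 0.11 at 2 months (limma adjusted p = 0.838). Srebf1, its sister gene, which acts more on fatty acid synthesis, was not called at either age (-0.06 ± 0.15 and -0.51 ± 0.16, limma adjusted p = 0.944 and 0.0662). Under the IL1R1 KO label the single call of this list was Rnf139, a ubiquitin ligase of the endoplasmic reticulum that binds sterol regulators. It was higher at 2 years than at 2 months (0.61 ± 0.15, limma adjusted p = 0.00909), where 5.12% of all genes were called higher. At 2 years it was also higher than in WT (0.62 ± 0.14, limma adjusted p = 0.0168), where 0.997% of all genes were called higher. The call between ages was lost when the library with differing age labels was placed at 2 months (limma adjusted p = 0.0618). The call against WT was lost without WT replicate 4 (limma adjusted p = 0.0705).

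Of the 11 uptake genes listed 10 were tested, and GF of 1 year had 1 called lower, Stard4, a carrier of cholesterol through the cytosol (-0.51 ± 0.15, limma adjusted p = 0.0406; 0.265 without GF replicate 1, 0.102 without GF replicate 2 and 0.0645 to 0.0787 without WT replicate 2, 3, 4 or 5), and at 2 months 0 were called (1 with an unadjusted p below 0.05). From 2 months to 2 years under the IL1R1 KO label 4 were called lower and 1 higher, where 2.9% and 5.12% of all genes were. The lower ones included Stard4 (-0.55 ± 0.13, limma adjusted p = 0.00635), Tmem97, a binding partner of NPC1 (-0.67 ± 0.20, 0.0349) and Scarb1, the HDL receptor (-0.41 ± 0.12, 0.0378). Lipoprotein lipase, Lpl, was higher (0.80 ± 0.20, limma adjusted p = 0.0132). With the cell cycle covariate Stard4, Tmem97 and Scarb1 were no longer called (limma adjusted p = 0.0543, 0.868 and 0.608). The calls of Tmem97, Scarb1 and Lpl also ended without 2-month replicate 1 (limma adjusted p = 0.240, 0.240 and 0.170). Those of Tmem97 and Scarb1 ended too without 2-month replicate 2, and without 2-year replicates 1, 2 or 4 (Tmem97) or 2, 3, 4 or 5 (Scarb1), each left out alone.

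Among 10 genes of sterol efflux and storage, GF libraries of 1 year had (beside 1.83% of all genes called higher) Abca1 (0.85 ± 0.23, limma adjusted p = 0.0324) and Abcg1 (0.55 ± 0.14, 0.0257) called higher. Both encode cholesterol exporters that the sterol-activated receptor LXR switches on. Their calls were lost without GF replicate 1 (limma adjusted p = 0.252 and 0.486), that of Abca1 also without GF replicate 2 (0.0788) or WT replicate 3, 4 or 5, and that of Abcg1 without WT replicate 4 (0.0627). At 2 months Abca1 and Abcg1 were at -0.46 ± 0.21 and -0.22 ± 0.13. Apoe, a lipoprotein component, was called lower in GF at 1 year (-0.89 ± 0.12, limma adjusted p = 0.000119; 3.13% of all genes), and no alternative ended that call. It was at -0.45 ± 0.11 at 2 months (limma adjusted p = 0.0646). Under the IL1R1 KO label, from 2 months to 2 years, the LXR genes Nr1h2 (0.61 ± 0.14, limma adjusted p = 0.00467) and Nr1h3 (1.31 ± 0.35, 0.0190) and Apoe (0.41 ± 0.11, 0.0159) were higher. Cyp27a1, which makes 27-hydroxycholesterol, was lower (-1.67 ± 0.32, limma adjusted p = 0.00106). In that comparison 5.12% of all genes were called higher and 2.9% lower. With the cell cycle covariate Nr1h2, Nr1h3 and Cyp27a1 were no longer called (limma adjusted p = 0.0539, 0.127 and 0.0603). Apoe lost its call without 2-month replicate 2 or 3 (limma adjusted p = 0.0576 and 0.108), and Nr1h3 without 2-month replicate 1 or 2 or 2-year replicate 3 (0.0573, 0.189 and 0.0570). With the library of differing age labels placed at 2 months, Nr1h2 and Nr1h3 were not called (limma adjusted p = 0.0917 and 0.118).

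**Figure D5:**
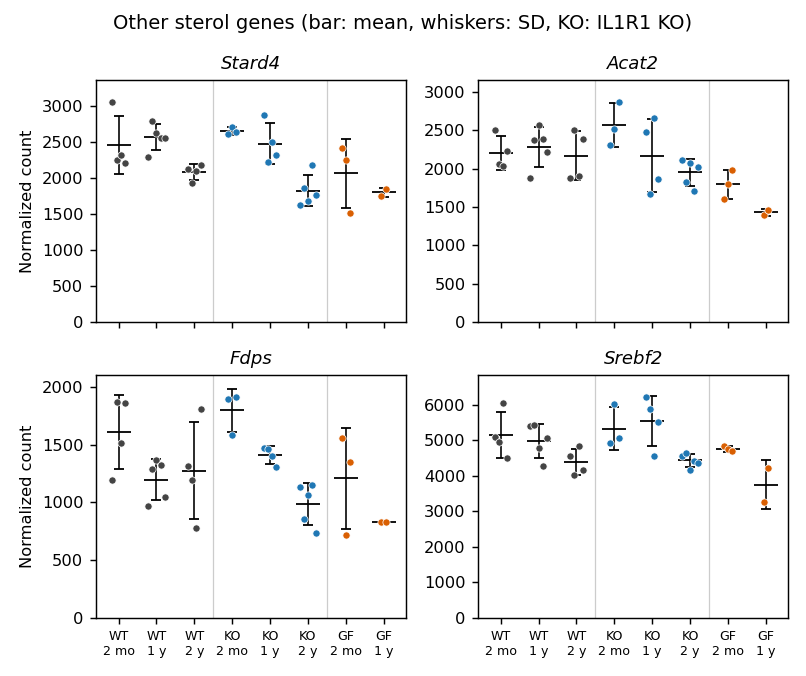
Normalized counts of 4 further sterol genes (y axis, from 0, own scale in each panel) in the 8 groups (x axis). Points are libraries, horizontal bars group means and whiskers SD. Stard4 lies between 1634 and 2182 in libraries labelled IL1R1 KO of 2 years, below the 2225 to 2871 of those of 1 year, and Srebf2 overlaps between these ages.

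How the 8 genes varied together was described over the 30 libraries, whose groups and cell makeup the points share. The 28 pairs had a median Pearson r of 0.64, from 0.34 for Cyp51 with Dhcr7 to 0.86 for Hmgcs1 with Idi1. With each value taken as a deviation from its group mean, the median was 0.34 and the range -0.05 to 0.74, and Hmgcs1 with Idi1 again had the highest value. Fdft1 with Cyp51 came next within groups, at 0.71, while Dhcr7 had at most 0.23 with any other of the 8, the highest with Insig1.

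Among 11846 other genes, those most like the mean of the 8 included Gdf3 (Pearson r 0.77), Txnrd3 (0.77), Rrp12 (0.77), Akr1c12 (0.75), Stard4 (0.74), Gypc (0.73), Acat2 (0.73), Acsl3 (0.72) and Pfkl (0.71), over 30 libraries. Of the first 10, 3 were in the sterol lists, Stard4 and Acat2 among them. By deviations from group means the most like included Mapk9 (0.79), Car13 (0.79), Cox10 (0.78), Zfp81 (0.74), Tmed7 (0.71), Ube2d3 (0.70), Arhgef6 (0.68), Pdxp (0.68) and Rac1 (0.67). The first 10 of each shared 0 genes.

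Levels were compared between genes per kilobase of exon, in WT of 2 months. Insig1 had the highest level of the 8, 600.1 ± 64.5 normalized counts per kilobase (SD, n = 4), then Idi1 at 498 ± 44.7 and Sqle at 368 ± 29.4. Cyp51 (292 ± 61.9), Dhcr7 (277 ± 124), Fdft1 (275 ± 38.7), Hmgcs1 (233 ± 58.0) and Msmo1 (198 ± 28.2) followed.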

How the data were processed

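RNA of 4000 to 5000 sorted cells was made into Smart-seq2 libraries and read as 100-base single ends, per the labels' protocols. Smart-seq2 does not mark strand. The submitters' processing notes name FastQC 0.11.9, cutadapt 2.10, Salmon 1.2.0.0, DESeq2 1.26.0 and GRCm38, and the step from transcripts to genes is not stated there. The authors deposited normalized counts per gene, a signal that is never negative, not read counts. Between 9.64% and 18.5% of values below 20 reads came out whole within 0.001, so reads were not recovered. The estimated depths divide the sum of a library by its most frequent low value, taken as 1 read, and are rough.

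Log2(normalized count + 1) was fitted with limma 3.58.1 in R 4.3.3, a mean per group over all 30 libraries, with trended and robust variances, for 16958 genes that reached 10 in at least 3 libraries. Tests were two-sided with Benjamini-Hochberg adjustment, called at 0.05, and the fit was tested on simulated data. Counts at an unadjusted p below 0.05 are given without the share over all genes, so nothing is read from them. Of 35727 genes 35422 matched a symbol. Tables and figures used matplotlib 3.10.9, pandas 2.3.3 and numpy 2.4.6 under Python 3.11.15. The 8 genes and all lists were chosen with earlier results of these data known. Besides the 8, named genes are up to 4 called per list and comparison, Srebf2, Srebf1 and the 10 most alike, of which some are not reported here. Alternatives were the pseudocount, the filter, scaling, the variance model, the groups fitted, a replicate block, 2 covariates, the library with differing age labels, the Mpo-rich libraries and each library left out.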

Additional observations from a re-analysis of the deposited data

Results flagged for a closer look

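Msmo1 in libraries labelled IL1R1 KO of 1 year had 1 library apart from the others: replicate 4, the lowest of 4, read 1348 normalized counts, and the nearest other library 1503. The gap was 0.842 of the range of the group. Of 40 gene and group sets checked for such a library this was the 1 found, and chance alone gives about 1 in 20.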

How the results depend on the processing

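Over all alternatives 52 summary values moved and none was marked as changing direction. A median within 0.18 of 0 in the main fit could not be so marked. The cause of the moves was not tested. Members called lower in libraries labelled IL1R1 KO from 1 year to 2 years, 0 in the main fit, numbered 1 with a pseudocount of 10, 3 with a filter at 50, 3 with only the groups compared, 1 with the myeloid progenitor covariate and 1 with the cell cycle covariate. Against WT of 2 years 1 was called with only the groups compared. From 2 months to 2 years the cell cycle covariate left 1 of the 5 calls, a median of -0.45 and 0 other sterol pathway genes. Leaving out the Mpo-rich 2-month libraries left 0 calls and 0 other sterol pathway genes there. Leaving out single libraries gave 4 to 5 members and 0 to 1 other sterol pathway genes called there. For GF against WT at 1 year, leaving out single libraries gave a median of -0.95 to -0.34 and 0 to 2 other sterol pathway genes called, and the cell cycle covariate 2.

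Over all genes, with only the groups compared, 37 were called for GF against WT at 2 months (main 102), 50 for IL1R1 KO from 2 months to 1 year (main 340) and 74 from 1 year to 2 years (main 30). With the library of differing age labels at 2 months, calls were 158 against WT of 2 years (main 241), and by age 58 from 2 months to 1 year, 710 from 2 months to 2 years (main 1360) and 10 from 1 year to 2 years. The cell cycle covariate gave 1716 for GF at 1 year (main 841), 86 from 2 months to 1 year and 841 from 2 months to 2 years. Without the Mpo-rich libraries calls were 179 for GF at 2 months, 168, 468 and 67 by age in the same order. Leaving out single libraries gave 67 to 109 for GF at 2 months, 150 to 1221 at 1 year, 123 to 256 against WT of 2 years, and by age 93 to 370, 751 to 1175 and 15 to 45.

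Deviations of same-numbered replicates had r of -0.11 to 0.15, the highest for replicate 1 of GF and WT at 1 year. With so few libraries per group this cannot exclude pairing or a shared batch. With a replicate block, calls for GF at 1 year fell to 418, and members called lower from 2 months to 2 years stayed at 5. GF of 1 year had 2 libraries, of 15.6 and 23.9 M estimated reads, which limits the precision of that comparison. WT of 1 year had 32.6 to 56.3 M, so depth also differed between the groups compared.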

Other observations

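Fatty acid synthesis, which SREBP1 drives, was followed in 12 tested genes. For GF against WT at 1 year 2 of 12 were called lower by limma, against 3.13% of all genes: Acly, which makes cytosolic acetyl-CoA (log2 difference -0.64 ± 0.17 (SE), adjusted p = 0.0315), and Fads2, a fatty acid desaturase (-0.81 ± 0.15, adjusted p = 0.00323). Without GF replicate 1 the limma adjusted p was 0.437 for Acly and 0.104 for Fads2, and Acly also lost its call without WT replicate 2, 3 or 4. At 2 months 0 of 12 were called by limma, 1 had an unadjusted p below 0.05, and Fads2 was at -0.57 ± 0.14 (adjusted p = 0.0509). From 2 months to 2 years in libraries labelled IL1R1 KO, Scd2, which makes monounsaturated fatty acids, was the 1 of 12 called, where 2.9% of all genes were called lower (-0.77 ± 0.15, limma adjusted p = 0.00108), and no alternative ended that call.

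Of 12 genes of the isoprenoid branch, which leads from the mevalonate pathway to prenylated proteins and other products, 0 were called by limma for GF against WT at 2 months (0 at an unadjusted p below 0.05) and 0 at 1 year (5 unadjusted). Rabggtb, a subunit of the enzyme that prenylates Rab proteins, was higher in libraries labelled IL1R1 KO than in WT at 2 years, where 0.997% of all genes were called higher (0.55 ± 0.10, limma adjusted p = 0.00251).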
